A study of Mus musculus with 2 samples.

Results

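The genes described here are 8 genes that build the sugar ligands of L-selectin on lymph node blood vessels, namely the core proteins Glycam1, Cd34, Podxl and Emcn and the Golgi enzymes Chst4, Chst2, Fut7 and Gcnt1. They were listed by symbol for their known roles in these ligands, and are 8 of 27933 gene symbols in the tables. Single cells of mouse mandibular lymph nodes, which receive lymph from the head, were profiled 24 h after experimental subarachnoid haemorrhage (SAH, bleeding into the fluid space around the brain) or after a sham operation. Each group was 1 droplet library made from the pooled nodes of 20 mice. Strain, sex, age and genotype of the mice were not given in the sources used here. In both groups cells carrying CD45, the common leukocyte antigen, were depleted, and the remainder was enriched on magnetic beads with antibodies against CD31 and podoplanin, so leukocytes are mostly absent and blood and lymphatic endothelium are over-represented.

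L-selectin on naive lymphocytes binds O-glycans displayed on the wall of high endothelial venules, the vessels through which lymphocytes enter a lymph node. The glycans are hung on mucin-like core proteins and become ligands only after a core branch is added, the terminal sugar is sialylated and fucosylated, and N-acetylglucosamine is sulfated. Glycam1 encodes a secreted mucin, Cd34 and Podxl encode related transmembrane sialomucins, and Emcn encodes endomucin, a sialomucin of venous and capillary endothelium. Gcnt1 makes the core branch, Fut7 adds fucose in the sialyl Lewis X structure, and Chst4 and Chst2 are the sulfotransferases that put sulfate on N-acetylglucosamine, with Chst4 known as the form restricted to high endothelial venules.

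In the deposited build mm10 the 8 protein-coding genes lie on 8 different chromosomes. The scaffolds are Glycam1 (chr15:103562759-103565081, minus strand), Cd34 (chr1:194938819-194961279, plus), Podxl (chr6:31519488-31563981, minus) and Emcn (chr3:137341067-137432185, plus). The enzymes are Chst4 (chr8:110029153-110039740, minus), Chst2 (chr9:95399292-95406722, minus), Fut7 (chr2:25423267-25426374, plus) and Gcnt1 (chr19:17326141-17372844, minus). Cd34 overlaps the opposite-strand gene Gm16897, and 0.447% of its 50-base windows and 0.262% of those of Chst2 occur in other genes; the other 6 genes shared none.

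The 250 bases upstream are shown for 3 of the 5 members that were higher in Ackr1-high than in Ackr1-negative blood endothelium (BEC) in both libraries. Chst4 and Gcnt1, which were also higher there, are not shown. Fut7 did not share the difference of Glycam1 and Chst2 between LEC classes. Sequences and start sites are from RefSeq for GRCm38.p6, which is the mm10 assembly, and are written 5′ to 3′ on the gene's strand. Capitals mark a match to AGGAAG, an ETS-type core, in Glycam1 (chr15:103565082-103565331, minus strand), and a match to a kappa-B form (GGGA and CC with any 4 bases between them), the kind of site that NF-kappa-B factors bind, in Chst2 (chr9:95407271-95407520, minus strand). The Fut7 window (chr2:25422992-25423241, plus strand) held neither of them, nor AGGTCA, a nuclear receptor half-site.
Glycam1: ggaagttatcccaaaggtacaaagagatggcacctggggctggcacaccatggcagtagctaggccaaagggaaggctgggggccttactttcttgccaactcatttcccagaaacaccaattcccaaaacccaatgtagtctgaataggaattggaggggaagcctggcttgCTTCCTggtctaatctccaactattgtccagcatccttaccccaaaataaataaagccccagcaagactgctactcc
Chst2: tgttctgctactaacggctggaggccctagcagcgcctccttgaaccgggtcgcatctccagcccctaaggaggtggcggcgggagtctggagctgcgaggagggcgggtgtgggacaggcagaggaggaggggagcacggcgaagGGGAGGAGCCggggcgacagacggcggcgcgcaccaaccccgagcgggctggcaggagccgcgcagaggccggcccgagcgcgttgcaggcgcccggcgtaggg
Fut7: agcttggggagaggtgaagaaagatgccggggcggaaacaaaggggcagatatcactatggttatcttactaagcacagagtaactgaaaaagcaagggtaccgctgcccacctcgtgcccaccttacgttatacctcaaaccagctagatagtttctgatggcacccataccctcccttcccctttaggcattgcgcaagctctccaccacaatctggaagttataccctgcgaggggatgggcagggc

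Matches were searched on both strands in 32851 RefSeq promoter windows of the same length. AGGAAG occurred in 29.5% of them, the kappa-B form in 17.6% and AGGTCA in 14.0%, so a match in any 1 window is common. The match in Glycam1 began 77 bases before the start site and that in Chst2 began 104 bases before it. Among the other members Emcn had 2 matches to AGGAAG and 2 to AGGTCA, Cd34 had 1 to AGGAAG, and Chst4 had none. For Fut7 a downstream start site, and for Gcnt1 2 of 3 start sites, also had matches to AGGAAG. Podxl was not matched in the table.

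The sham library held 72860197 UMIs (unique molecular identifiers, each marking 1 captured RNA molecule) in 13952 barcodes, and the SAH library held 78497486 UMIs in 13766 barcodes. With at least 500 genes and at most 10% mitochondrial UMIs, 11157 sham and 11454 SAH barcodes were kept, with median depths of 5039 and 5747 UMIs. The libraries had 76 barcodes in common, 49 of them kept in both. Although both samples are labelled as lymphatic endothelial cells, blood endothelial cells (BEC, with Pecam1 and no Prox1) made up 60.4% of kept sham and 60% of kept SAH barcodes, lymphatic endothelial cells (LEC, with Prox1) 21.2% and 22.4%, and fibroblastic stroma (Dcn and Col3a1) 13.7% and 14.2%. Of the LEC markers that set no gate, Lyve1 was at 572 CPM (UMI counts of a gene per 1000000 UMIs of a class) in sham and 987 CPM in SAH LEC, against 30.2 and 45.1 CPM in BEC without Ackr1, and Mmrn1 at 754 and 940 CPM against 32.6 and 44.5 CPM. Predicted doublets were kept.

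BEC were split by Ackr1, the chemokine receptor of venular endothelium, into Ackr1-high cells with at least 2 UMIs (841 sham and 792 SAH cells), Ackr1-low cells with 1 UMI (341 and 375) and Ackr1-negative cells (5559 and 5701). LEC were split into cells with Ackr4, a marker of the sinus ceiling (Ackr4 or ceiling LEC, 1129 and 1080 cells), cells with Madcam1 or Coch, markers of the sinus floor (floor LEC, 493 and 561), cells with both (81 and 152) and cells with neither (661 and 769). None of these gates used a member. Because each group is 1 library, no test between sham and SAH was made. Bracketed ranges are exact 95% intervals that cover counting error only, and a fold of at least 1.5 in either direction is called a difference between the libraries.

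Glycam1, the secreted scaffold, had its highest levels in Ackr1-high BEC and floor LEC in both libraries, with Ackr1-low BEC and LEC with both LEC markers between these and the remaining classes. In Ackr1-high BEC it reached 44696 CPM in sham and 45964 CPM in SAH. Ackr1-low BEC had 5393 and 12011 CPM, and Ackr1-negative BEC 925 and 1123 CPM. The Ackr1-high level was therefore 48.3-fold (47.7 to 48.9) that of Ackr1-negative BEC in the sham library and 40.9-fold (40.5 to 41.4) in the SAH library, a far wider gap than the 1.5-fold line.

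In LEC, Glycam1 followed the floor markers. LEC with Madcam1 or Coch had 18421 CPM in sham and 14970 CPM in SAH, and LEC with Ackr4 had 1050 and 1806 CPM. The floor level was 17.5-fold (17.2 to 17.9) the ceiling level in sham and 8.29-fold (8.16 to 8.43) in SAH, and it was 0.412 and 0.326 of the level of Ackr1-high BEC. In the Ackr4 LEC most of the Glycam1 UMIs were in a few barcodes, since the 10 highest held 77.7% of them in sham and 72.9% in SAH. In the floor LEC the 10 highest barcodes held 15.2% and 19.1%. Without predicted doublets the floor-to-ceiling fold was 29.4 in sham and 17.0 in SAH.

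Glycam1 was also found as scattered UMIs in cells of every class. After thinning each cell to 2000 UMIs, at least 1 Glycam1 UMI was found in 86.4% of sham and 91.2% of SAH Ackr1-high BEC, and in 31.9% and 51.1% of fibroblastic stroma. Fibroblasts are not a known source of Glycam1, so the latter shares serve as a reference. Free RNA was not measured, and its part in them was not tested. Median depths were 4768 and 6336 UMIs in fibroblastic stroma against 8823 and 9197 in Ackr1-high BEC. Unthinned shares were 94.2% and 97.9% in Ackr1-high BEC and 57.4% and 85.7% in fibroblastic stroma. Thinned shares were 32.3% (29.6 to 35.1) and 54.1% (51.1 to 57.1) in Ackr4 LEC, which overlapped those of fibroblastic stroma. In Ackr1-negative BEC they were 39.2% (37.8 to 40.5) and 55.1% (53.7 to 56.4), above the 31.9% (29.4 to 34.3) and 51.1% (48.5 to 53.6) of fibroblastic stroma. Glycam1 levels in fibroblastic stroma were 288 and 435 CPM, lower than in both of these classes.

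The number of Glycam1 UMIs per cell separated the classes more clearly than its presence. Per 2000 UMIs the median Ackr1-high BEC had 19.5 Glycam1 UMIs in sham and 35 in SAH, and the median floor LEC 21.5 and 16. Ackr1-low and Ackr1-negative BEC, Ackr4 LEC, LEC with neither marker and fibroblastic stroma had medians of 0 or 1. The spread within Ackr1-high BEC was wide, from 2 at the 25th percentile to 120 at the 75th in sham and from 3 to 119 in SAH. Cells with at least 100 Glycam1 UMIs per 2000 were 28.7% (25.7 to 31.9) of Ackr1-high BEC in sham and 28.3% (25.1 to 31.6) in SAH, but 7.52% and 5.24% of floor LEC and 0.181% and 0.276% of Ackr1-negative BEC.

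**Figure D1:**
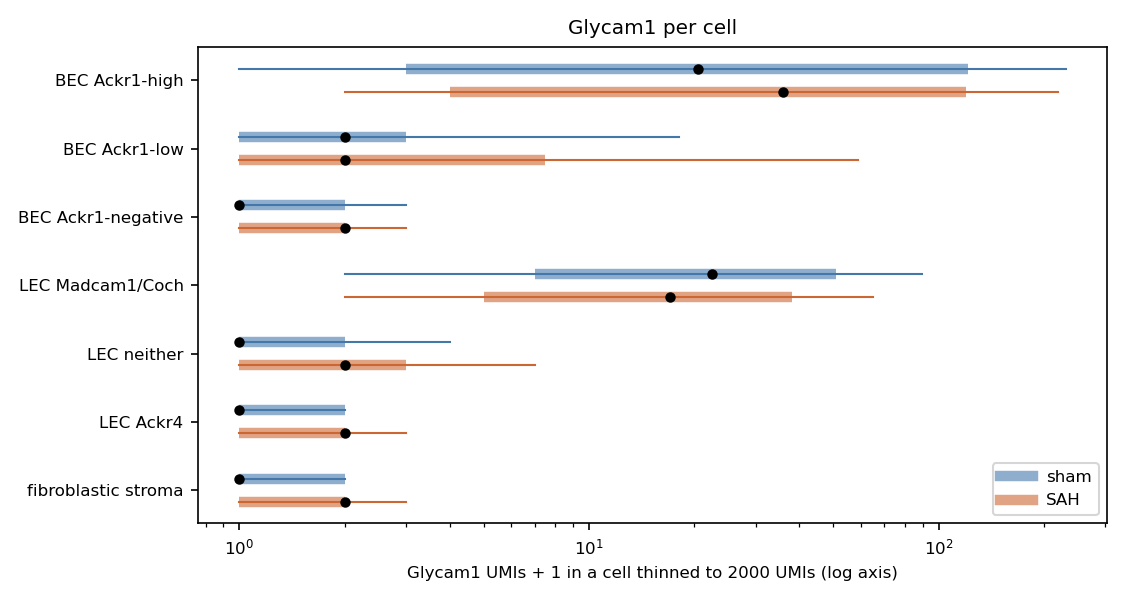
Glycam1 UMIs plus 1 per cell (log axis) in cells thinned to 2000 UMIs, by cell class, with sham in blue and SAH in orange. Black points are medians, thick bars the 25th to 75th percentiles and thin lines the 10th to 90th. Ackr1-high BEC and Madcam1/Coch LEC stand apart, with medians of 19.5 and 35, and of 21.5 and 16, UMIs.

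Cd34, the transmembrane scaffold, was about as high in BEC without Ackr1 as in BEC with it. Levels were 488 CPM in sham and 555 CPM in SAH in Ackr1-high BEC, 550 and 536 CPM in Ackr1-low BEC, and 569 and 579 CPM in Ackr1-negative BEC. The Ackr1-high level was 0.859 (0.829 to 0.889) of the Ackr1-negative level in sham and 0.959 (0.927 to 0.992) in SAH, both inside the 1.5-fold line. LEC had less Cd34, at 73.9 and 87.7 CPM in Ackr4 LEC and 45.7 and 76.3 CPM in floor LEC. LEC with neither marker had 218 and 220 CPM.

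The other place of high Cd34 was a small set of fibroblasts. In fibroblastic cells with Pi16, a marker of adventitial fibroblasts (73 sham and 60 SAH cells), Cd34 was at 704 and 593 CPM, against 43.2 and 44.9 CPM in fibroblastic cells with Ccl19, a chemokine of reticular cells. The fold between them was 16.3 (13.7 to 19.4) in sham and 13.2 (11.1 to 15.7) in SAH. The Pi16 cells therefore stood level with BEC for this scaffold while Podxl and Emcn were under 20 CPM in them in both libraries. Chst4 had 0 UMIs there in both libraries, which allows up to 8.35 CPM in sham and 9.08 CPM in SAH.

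Podxl, which encodes podocalyxin, ran opposite to Glycam1 in both endothelial lineages. It was at 95.9 CPM in sham and 101 CPM in SAH in Ackr1-high BEC, and at 552 and 531 CPM in Ackr1-negative BEC. The ratio of the former to the latter was 0.174 (0.162 to 0.187) in sham and 0.190 (0.177 to 0.204) in SAH. Among Ackr1-negative BEC, cells with at least 3 UMIs of the arterial markers Gja4, Gja5, Bmx and Sox17 had 663 and 660 CPM, and cells with none of these had 450 and 399 CPM. Ackr4 LEC had 368 and 375 CPM and floor LEC 44.7 and 91.0 CPM, a floor-to-ceiling ratio of 0.121 (0.105 to 0.140) in sham and 0.243 (0.220 to 0.267) in SAH. Fibroblastic stroma had 10.7 and 16.0 CPM.

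Emcn had the same order as Podxl among the BEC classes and between floor and Ackr4 LEC, with smaller gaps in both. The gap from Ackr1-negative BEC to all LEC was wider for Emcn, at 5.95-fold and 4.06-fold against 2.22-fold and 2.05-fold for Podxl. The Emcn level was 613 CPM in sham and 512 CPM in SAH in Ackr1-high BEC, 888 and 592 CPM in Ackr1-low BEC and 1087 and 826 CPM in Ackr1-negative BEC. Ackr1-high BEC had 0.564 (0.548 to 0.581) of the Ackr1-negative level in sham and 0.620 (0.600 to 0.642) in SAH. Floor LEC had 63.9 and 99.8 CPM against 170 and 200 CPM in Ackr4 LEC. LEC with neither marker had the most Emcn among LEC, at 350 and 313 CPM, whereas their Podxl, at 225 and 211 CPM, was below that of Ackr4 LEC. Across the 20 class-by-library points (10 classes in each library, which share libraries and depth) the Pearson correlation of log2(CPM + 10) between Podxl and Emcn was 0.865, and that between Glycam1 and Podxl was 0.398.

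Chst4, the sulfotransferase associated with high endothelial venules, was nearly restricted to Ackr1-high BEC. It was at 161 CPM in sham and 224 CPM in SAH in these cells, at 21.9 and 50.8 CPM in Ackr1-low BEC and at 2.73 and 5.44 CPM in Ackr1-negative BEC. The fold between Ackr1-high and Ackr1-negative BEC was 58.9 (46.8 to 75.1) in sham and 41.2 (35.0 to 48.7) in SAH. With at most 5% mitochondrial UMIs the sham fold was 123 (84.1 to 188). Its level in floor LEC, the other class rich in Glycam1, was 3.06 and 10.7 CPM, which is 0.0190 and 0.0476 of the level in Ackr1-high BEC. In the sham floor LEC all 14 Chst4 UMIs were in 10 or fewer barcodes.

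Fut7, the fucosyltransferase, followed the same order. Ackr1-high BEC had 378 CPM in sham and 534 CPM in SAH, Ackr1-low BEC 123 and 168 CPM, and Ackr1-negative BEC 18.1 and 21.9 CPM, so the Ackr1-high level was 20.9-fold (19.1 to 23.0) and 24.4-fold (22.5 to 26.6) the Ackr1-negative level. Floor LEC had 8.10 and 23.8 CPM, or 0.0214 and 0.0446 of the level in Ackr1-high BEC. Over the same 20 points Fut7 and Chst4 had a correlation of 0.955, the highest of the 28 pairs of members. The count of 28 pairs covers all pairs of the 8 genes, and no p is attached because the points share libraries.

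Gcnt1, the branching enzyme, was high in 2 places. Ackr1-high BEC had 141 CPM in sham and 137 CPM in SAH against 9.55 and 9.93 CPM in Ackr1-negative BEC, a fold of 14.8 (13.0 to 17.0) and 13.8 (12.1 to 15.8). Among LEC it was highest with Ackr4, at 115 CPM in sham and 68.4 CPM in SAH, against 33.5 and 33.7 CPM in floor LEC. The floor-to-ceiling ratio was 0.290 (0.243 to 0.344) in sham and 0.493 (0.415 to 0.582) in SAH. Gcnt1 was thus the only enzyme of the 4 with more in ceiling than in floor LEC past the 1.5-fold line in both libraries.

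Chst2, the more widely used sulfotransferase, was shared by Ackr1-high BEC and floor LEC. Ackr1-high BEC had 187 CPM in sham and 200 CPM in SAH, and floor LEC 193 and 227 CPM, which gave a ratio of floor LEC to Ackr1-high BEC of 1.03 (0.949 to 1.12) and 1.13 (1.05 to 1.22). Ackr1-negative BEC had 81.2 and 73.2 CPM, and the Ackr1-high level was 2.30-fold (2.16 to 2.46) and 2.74-fold (2.56 to 2.93) theirs. In Ackr4 LEC it was at 22.7 and 24.6 CPM, so the floor level was 8.49-fold (7.27 to 9.95) in sham and 9.24-fold (8.05 to 10.6) in SAH. Without predicted doublets these folds were 13.2 (10.7 to 16.4) and 12.4 (10.4 to 14.7). Fibroblastic cells with Ccl19 had 32.3 and 35.0 CPM. The correlation of Chst2 with Glycam1 over the 20 points was 0.892, the highest that Glycam1 had with a member.

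**Figure D2:**
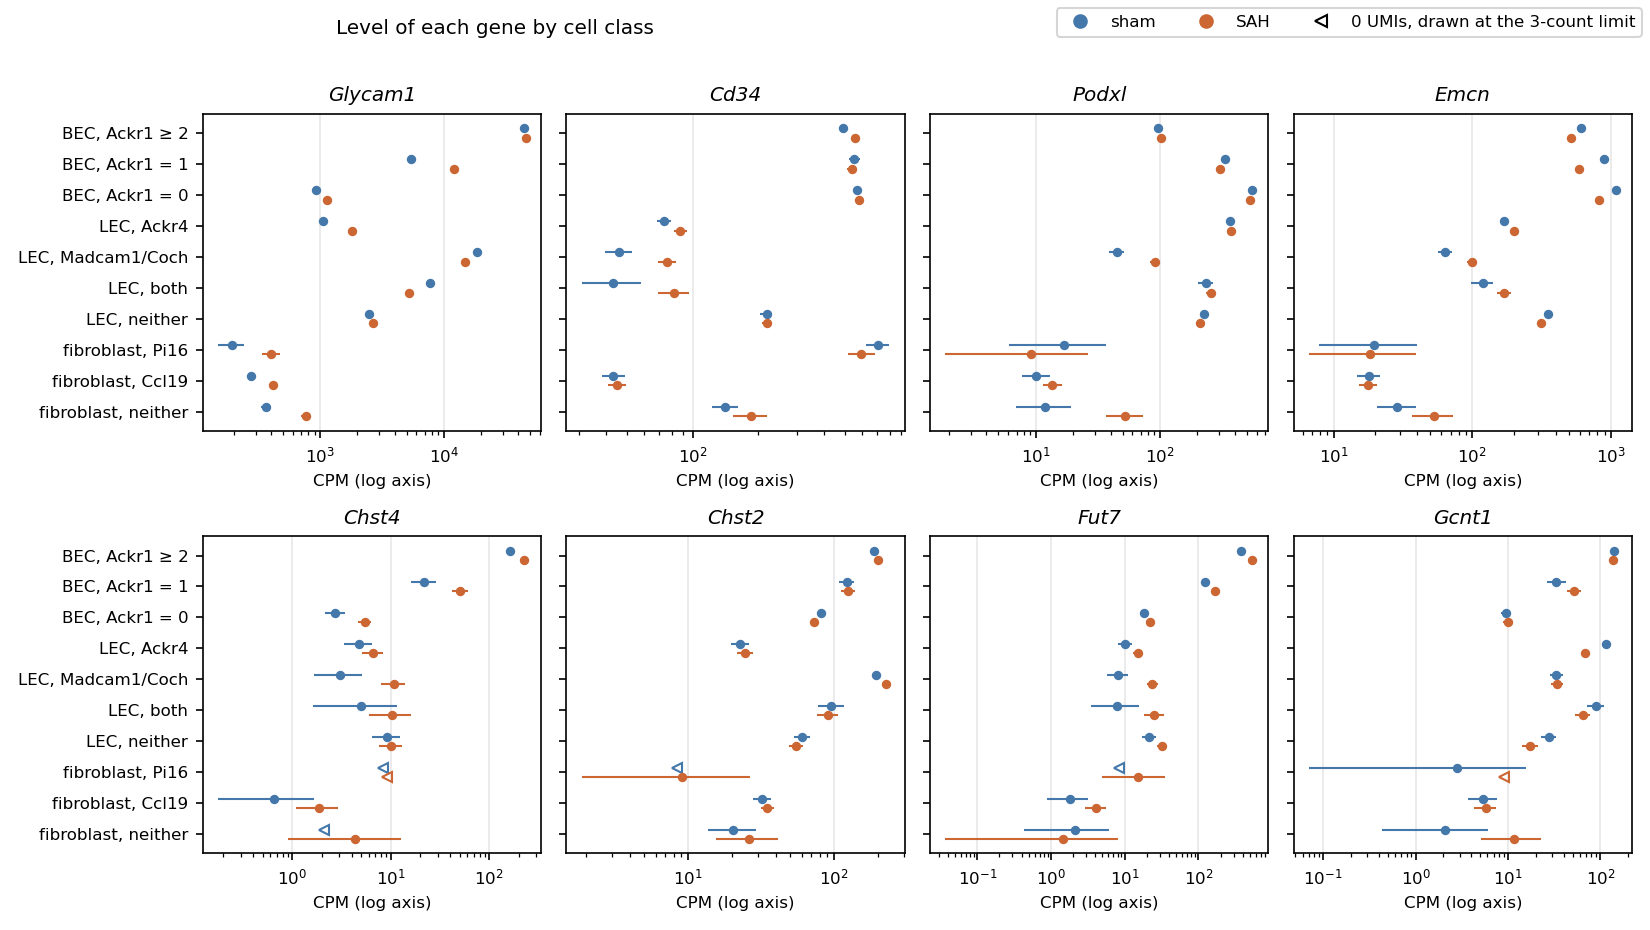
Level of each member in CPM (log axis, a separate range per gene) in 10 cell classes, with sham in blue and SAH in orange. Points are class sums, bars are exact Poisson 95% intervals, and open triangles mark 0 UMIs drawn at the 3-count limit. The panels of Glycam1, Chst4 and Fut7 peak in Ackr1-high BEC, Podxl and Emcn in Ackr1-negative BEC, and Cd34 in BEC and in Pi16 fibroblasts.

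Counted together, 5 of the 8 members (Glycam1, Chst4, Chst2, Fut7 and Gcnt1) were at least 1.5-fold higher in Ackr1-high than in Ackr1-negative BEC in both libraries, where 3.65% of 7920 genes with at least 10 CPM were higher. Podxl and Emcn were at least 1.5-fold lower in both, where 15.3% of genes were lower. All 4 enzymes were thus on the higher side, and of the 4 scaffolds only Glycam1 was. Between floor and ceiling LEC, 6 members could be compared at 10 CPM. Glycam1 and Chst2 were higher in floor LEC in both libraries, where 6.78% of 8258 genes were higher, and Podxl, Emcn and Gcnt1 were lower, where 10.8% were lower. Cells with 2 or more Ackr1 UMIs were deeper, with a median of 8823 UMIs in sham and 9197 in SAH against 4170 and 4384 in Ackr1-negative BEC. After thinning to 2000 UMIs, with the classes still set on unthinned Ackr1 counts, the same 5 members were higher and the same 2 lower. The part of depth in that gate was not tested for this comparison.

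The floor LEC and the Ackr1-high BEC thus shared the scaffold Glycam1 and the enzyme Chst2, but not Fut7 and Chst4. Per 1000 Glycam1 UMIs, Ackr1-high BEC had 8.47 (8.17 to 8.77) Fut7 UMIs in sham and 11.6 (11.3 to 12) in SAH, whereas floor LEC had 0.440 (0.310 to 0.606) and 1.59 (1.32 to 1.89). For Chst4 the numbers were 3.60 and 4.87 in Ackr1-high BEC and 0.166 and 0.712 in floor LEC. Chst2 went the other way, at 4.18 and 4.36 per 1000 in Ackr1-high BEC and 10.5 and 15.2 in floor LEC.

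The same ratios were also read for the low counts elsewhere. In Ackr4 LEC, Fut7 was at 9.63 (7.72 to 11.9) and 8.49 (7.20 to 9.95) per 1000 Glycam1 UMIs. Ackr1-high BEC had 8.47 (8.17 to 8.77) and 11.6 (11.3 to 12), so the SAH intervals did not overlap. Chst4 in Ackr4 LEC was at 4.49 (3.22 to 6.09) and 3.66 (2.83 to 4.66), against 3.60 and 4.87. The 10 highest barcodes of Ackr4 LEC held 69.3% and 58.8% of its Fut7 UMIs and 75.6% and 75.8% of its Chst4 UMIs. Fibroblastic stroma had 6.12 (3.34 to 10.3) and 9.82 (7.19 to 13.1) for Fut7 and 1.75 (0.476 to 4.47) and 4.48 (2.78 to 6.85) for Chst4. These intervals overlapped those of Ackr1-high BEC. Gcnt1 in Ackr4 LEC, at 110 and 37.9 per 1000, and Chst2 in fibroblastic stroma, at 99.6 and 77.3 per 1000, were far above the 3.16 and 2.99, and the 4.18 and 4.36, of Ackr1-high BEC. Fut7 in Ackr1-negative BEC was 19.5 per 1000 in each library, also above the Ackr1-high proportion. The part of free RNA in the low counts was not tested.

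Within BEC, Glycam1, Chst4, Fut7 and Gcnt1 were higher and Podxl and Emcn lower with more Ackr1 UMIs, while Cd34 changed little. From 0 through 1, 2 to 4 and 5 to 9 to at least 10 Ackr1 UMIs, Glycam1 went from 925 to 5393, 24595, 45517 and 58865 CPM in sham and from 1123 to 12011, 28910, 50317 and 59112 CPM in SAH. Gcnt1 went from 9.55 to 177 CPM in sham and from 9.93 to 148 CPM in SAH over the same bins. Chst2 climbed from 81.2 to 196 CPM in sham and from 73.2 to 217 CPM in SAH up to 5 to 9 Ackr1 UMIs, but not beyond. Podxl ran down from 552 to 69.2 CPM in sham and from 531 to 70.6 CPM in SAH over all bins, and Emcn from 1087 to 572 CPM and from 826 to 495 CPM. Cd34 stayed between 459 and 569 CPM in sham and between 536 and 579 CPM in SAH. Median depth increased with the bins from 4170 to 11641 UMIs in sham and from 4384 to 11578 UMIs in SAH, so the number of Ackr1 UMIs is in part a reading of depth.

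**Figure D3:**
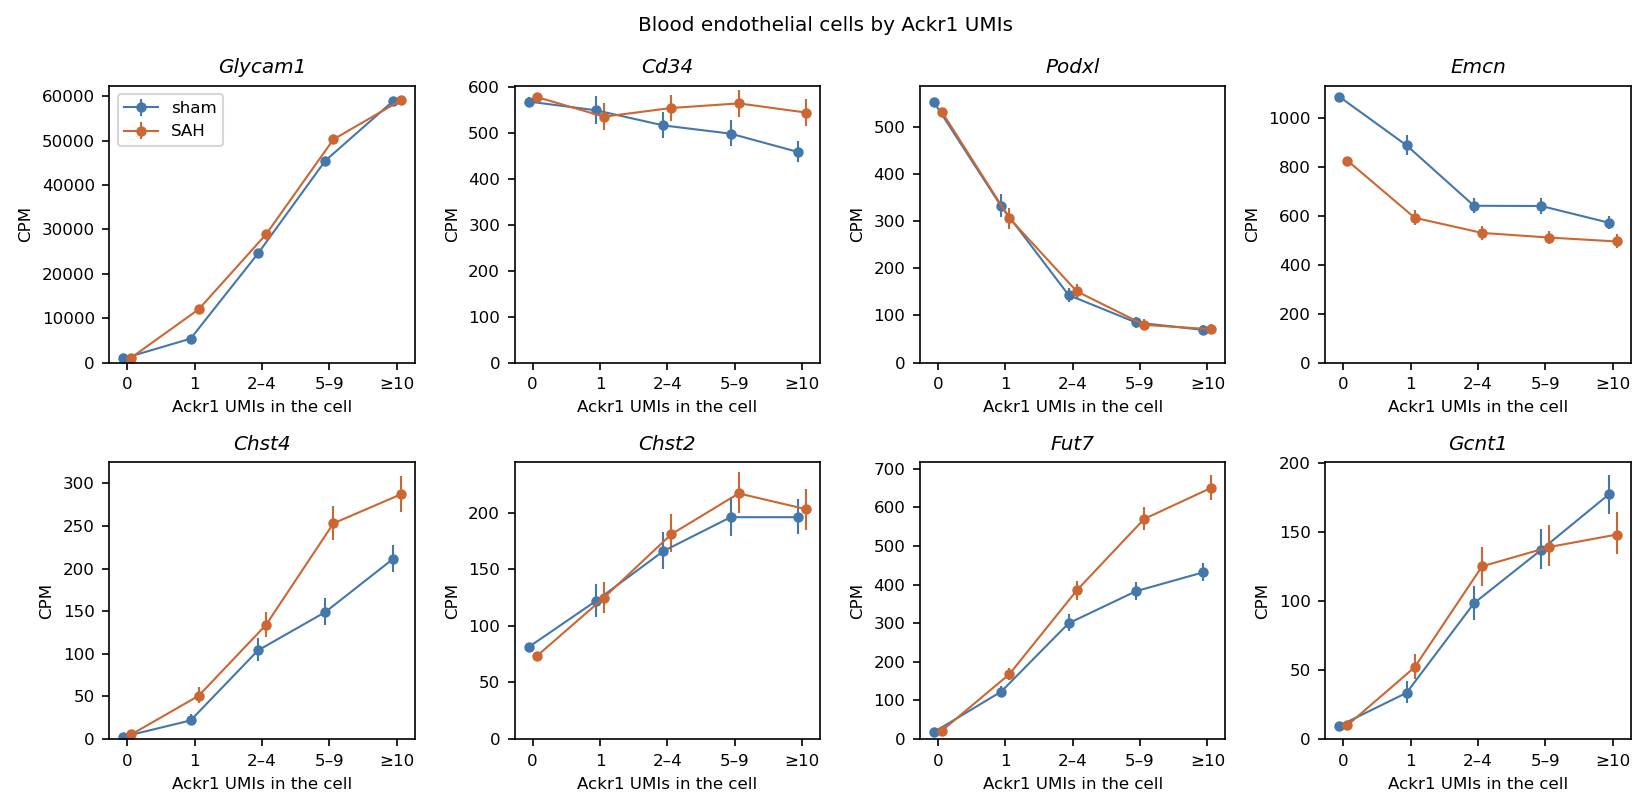
Level of each member in CPM (linear axis from 0) in BEC grouped by their Ackr1 UMIs, with sham in blue and SAH in orange and exact Poisson 95% intervals. Glycam1, Chst4, Fut7 and Gcnt1 climb from the cells with 0 to those with at least 10 Ackr1 UMIs, and Podxl and Emcn descend. The SAH points of Chst4 and Fut7 lie above the sham points in the bins with Ackr1.

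Cells with several enzymes were mostly Ackr1-high BEC. In Ackr1-high BEC thinned to 2000 UMIs, 34.6% (31.4 to 38.0) of sham and 42.6% (39.1 to 46.1) of SAH cells had UMIs of at least 2 of the 4 enzymes. In Ackr1-negative BEC these shares were 1.13% and 1.30%, in floor LEC 2.64% and 3.98%, in Ackr4 LEC 1.25% and 1.58%, and in fibroblastic stroma 0 of 1425 sham cells, an exact upper bound of 0.259%, and 1 of 1547 SAH cells. All 4 enzymes were found together in 15 sham and 22 SAH Ackr1-high BEC, which are 1.80% and 2.81% of them. These shares follow in part from how often each enzyme was found alone in a class, at 20.2% to 45.0% of sham and 22.5% to 54.2% of SAH Ackr1-high BEC.

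Split by Chst4, the thinned Ackr1-high BEC differed in the other enzymes. Fut7 was found in 60.2% (52.8 to 67.3) of sham cells with Chst4 and 40.6% (36.7 to 44.5) of those without, and in 68.1% (61.6 to 74.2) and 48.6% (44.3 to 52.8) of SAH cells. Gcnt1 was found in 30.1% against 17.3% in sham and 30.5% against 19.2% in SAH. Chst2 shares were 32.8% against 29.1% and 31.9% against 30.6%, with overlapping intervals. Podxl shares were lower with Chst4, at 11.3% (7.13 to 16.7) against 19.3% (16.4 to 22.6) in sham and 10.2% (6.56 to 14.9) against 17.8% (14.7 to 21.2) in SAH. The Podxl intervals overlapped slightly in both libraries. For comparison, fibroblastic stroma had thinned shares of 0.140% and 0.711% for Chst4, 0.140% and 0.905% for Fut7, 0.912% and 1.36% for Gcnt1, 6.32% and 5.11% for Chst2 and 1.82% and 3.30% for Podxl. The median Ackr1-high cell with Chst4 had 111 Glycam1 UMIs per 2000 in sham and 88.5 in SAH, and the median cell without it had 8.5 and 15.

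Grouped by Glycam1, the share of cells with Chst4 went from 7.69% (5.32 to 10.7) under 20 Glycam1 UMIs to 30.5% at 20 to 99 and 41.8% (35.5 to 48.4) at 100 and over in sham, and from 10.3% (7.22 to 14.1) to 38.3% and 47.1% (40.3 to 53.9) in SAH. Fut7 shares followed the same order, from 31.0% to 65.7% in sham and from 40.8% to 68.8% in SAH. Gcnt1 was found in 12.7% and 13.6% of cells under 20 and in 29.3% and 29.0% at 100 and over. Chst2 did not climb to the top group, which had 30.1% in sham and 34.4% in SAH against 37.3% and 36.1% in the middle group. Cd34 and Podxl were found less often at the top, with Podxl in 8.79% and 9.05% of the cells against 23.6% and 22.7% under 20. Since every cell was cut to 2000 UMIs, cells with over 100 Glycam1 UMIs had slightly fewer UMIs left for other genes.

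**Figure D4:**
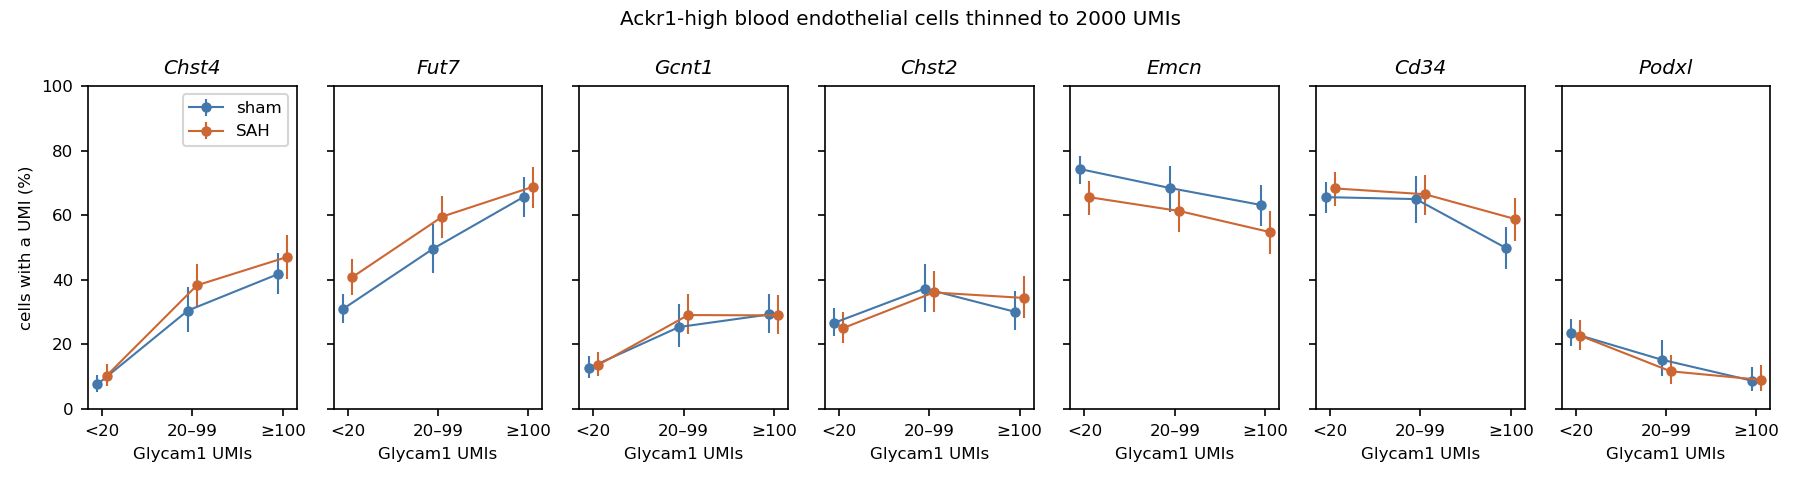
Share of Ackr1-high BEC with at least 1 UMI of each member (percent, axis from 0 to 100) after thinning to 2000 UMIs, in cells with fewer than 20, 20 to 99 and at least 100 Glycam1 UMIs, with exact binomial 95% intervals. Chst4, Fut7 and Gcnt1 are found more often in cells with more Glycam1, Podxl less often, and sham (blue) and SAH (orange) show the same order.

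Compared between the libraries, no member passed the 1.5-fold line in Ackr1-high BEC, and Fut7 and Chst4 were somewhat higher in SAH there and in several other classes. Of the 8 members 0 were at least 1.5-fold higher and 0 at least 1.5-fold lower in SAH, where 5.24% and 4.46% of 7617 genes were. Most genes of this class thus stayed inside the line, and the count does not set the members apart. The median log2 fold of the members was 0.09, and that of all genes tested was -0.06. No test was made because each group is 1 library, so these counts describe 2 pools of mice.

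Fut7 had 378 CPM in sham and 534 CPM in SAH, a fold of 1.41 (1.35 to 1.48), and Chst4 had 161 and 224 CPM, a fold of 1.39 (1.29 to 1.5). Within the bins of 2 to 4, 5 to 9 and at least 10 Ackr1 UMIs the fold was 1.28, 1.49 and 1.51 for Fut7 and 1.29, 1.70 and 1.36 for Chst4, so SAH was higher in each bin. Predicted doublets were 4.28% of sham and 8.71% of SAH Ackr1-high BEC, and without them the folds were 1.44 and 1.43. The median mitochondrial share was 4.88% in sham and 4.28% in SAH. With at most 5% mitochondrial UMIs the fold of Chst4 was 1.17 (1.07 to 1.27) and that of Fut7 1.29 (1.22 to 1.36). The summed markers Hbb-bs and Hba-a1 of red cells were at 813 CPM in sham and 11.4 CPM in SAH in this class, and their part in these differences was not tested. Both genes were also higher in SAH where they were scarce. In fibroblastic stroma the fold was 2.42 (1.31 to 4.77) for Fut7 and 3.87 (1.31 to 15.5) for Chst4. Chst4 had a fold of 1.99 (1.51 to 2.65) in Ackr1-negative BEC and 3.48 (1.91 to 6.77) in floor LEC. It had 1.11 (0.730 to 1.72) in LEC with neither marker and 0.814 (0.126 to 4.18) in barcodes that no gate took.

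The remaining members differed less in Ackr1-high BEC. Glycam1 was 1.03-fold (1.02 to 1.03), Cd34 1.14-fold (1.09 to 1.19), Podxl 1.05-fold (0.952 to 1.16), Chst2 1.07-fold (0.998 to 1.15) and Gcnt1 0.971-fold (0.893 to 1.06) the sham level. For Podxl, Chst2 and Gcnt1 the interval includes 1 at the main settings. With at most 5% mitochondrial UMIs the fold was 1.17 (1.03 to 1.33) for Podxl, 0.988 (0.903 to 1.08) for Chst2 and 0.803 (0.721 to 0.896) for Gcnt1. By Ackr1 UMIs, Gcnt1 was 1.27-fold (1.07 to 1.5) at 2 to 4, 1.02-fold (0.875 to 1.19) at 5 to 9 and 0.841-fold (0.736 to 0.959) at 10 and over. The Glycam1 fold was 0.875 (0.871 to 0.880) with at most 5% mitochondrial UMIs, so its direction depended on that limit. Thinned shares moved the same way as the CPM for Fut7 (45.0% in sham and 54.2% in SAH), Chst4 (22.4% and 28.9%) and Emcn (69.8% and 61.3%). For Podxl and Gcnt1 they did not, with 17.5% and 15.6% for Podxl and 20.2% and 22.5% for Gcnt1. From thinned cells the fold was 0.866 (0.693 to 1.08) for Podxl and 1.16 (0.957 to 1.42) for Gcnt1, so the direction of both turned with thinning. The unthinned shares were 75.4% and 81.7% for Fut7 and 49.2% and 59.2% for Chst4.

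Emcn was lower in SAH in every class of BEC. Relative to sham it was at 0.835 (0.801 to 0.871) in Ackr1-high, 0.667 (0.622 to 0.714) in Ackr1-low and 0.760 (0.747 to 0.773) in Ackr1-negative BEC. Both subsets of Ackr1-negative BEC showed it, with 0.817 (0.793 to 0.841) in cells with arterial markers and 0.712 (0.690 to 0.735) in cells with none. After thinning, 77.6% of sham and 73.0% of SAH Ackr1-negative BEC had an Emcn UMI. Salivary markers (Smr3a, Bpifa2, Krt8 and Krt18 summed) went from 233 to 1680 CPM and fibroblastic markers (6 genes summed) from 1908 to 3133 CPM in Ackr1-negative BEC; without barcodes that carry Ptprc or mixed markers the ratio was 0.820 (0.806 to 0.835) there. In Ackr1-high BEC salivary markers were at 91.0 and 134 CPM. The part of these markers in the difference was not tested.

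In Ackr1-negative BEC no member with at least 10 CPM passed the 1.5-fold line. Of the 6 members with at least 10 CPM, 0 were higher and 0 lower, where 5.64% and 2.42% of 8311 genes were. The median log2 fold was -0.016 for the 6 members and -0.00369 for all genes tested. Glycam1 had a fold of 1.21 (1.19 to 1.23) and Fut7 of 1.21 (1.08 to 1.36), Cd34 of 1.02 (0.995 to 1.04), Podxl of 0.962 (0.941 to 0.983) and Chst2 of 0.901 (0.849 to 0.956). Chst4 and Gcnt1 were under 10 CPM and were left out of these counts. On 77 and 160 UMIs Chst4 had a fold of 1.99 (1.51 to 2.65), past the 1.5-fold line. Gcnt1 had a fold of 1.04 (0.878 to 1.23) on 269 and 292 UMIs.

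Ackr1-low BEC, the small class between, had the largest Glycam1 fold of the BEC classes, at 2.23 (2.18 to 2.28). The 10 highest barcodes held 64.5% of its Glycam1 UMIs in sham and 50.9% in SAH, and per 2000 UMIs the median cell had 1 in both libraries. Cells with at least 20 Glycam1 UMIs per 2000 were 9.38% (6.41 to 13.1) of the class in sham and 17.9% (14.0 to 22.3) in SAH. With at most 5% mitochondrial UMIs the fold was 1.48 (1.44 to 1.52). Chst4 had a fold of 2.33 (1.65 to 3.33) there, on 47 and 126 UMIs, and 1.56 (0.809 to 3.09) after thinning.

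In LEC as a whole 1 of 7 members, Fut7, was at least 1.5-fold higher in SAH and 1, Gcnt1, at least 1.5-fold lower, where 5.44% and 2.66% of 8634 genes were. The median log2 fold was 0.12 for the 7 members and -0.01 for all genes tested. Gcnt1 was at 73.5 CPM in sham and 47.2 CPM in SAH, a ratio of 0.643 (0.593 to 0.697). The difference lay in Ackr4 LEC, with 115 and 68.4 CPM and a ratio of 0.592 (0.537 to 0.653), and in LEC with neither marker, with 27.5 and 17.4 CPM and a ratio of 0.635 (0.481 to 0.835). Floor LEC had 33.5 and 33.7 CPM, a ratio of 1.01 (0.806 to 1.26). In Ackr4 LEC the ratio stayed between 0.576 and 0.612 under 9 other settings, and the 10 highest barcodes held 6.17% and 7.04% of the UMIs. After thinning, a Gcnt1 UMI was found in 20.0% of sham and 13.2% of SAH Ackr4 LEC, against 0.912% and 1.36% of fibroblastic stroma. With equal weight for the 4 LEC classes the ratio over all LEC was 0.696, just inside the line.

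Fut7 was at 12.1 CPM in sham and 22.3 CPM in SAH in LEC, a fold of 1.84 (1.57 to 2.16). The fold was 1.52 (1.16 to 2.00) in Ackr4 LEC and 2.94 (2.02 to 4.36) in floor LEC, the latter on 37 and 125 UMIs. Per 1000 Glycam1 UMIs, Ackr4 LEC had 9.63 and 8.49 Fut7 UMIs, beside 8.47 and 11.6 in Ackr1-high BEC. The 10 highest barcodes held 35.1% and 25.4% of the Fut7 UMIs of LEC. Predicted doublets were 13.0% of sham and 15.7% of SAH LEC, and without them the fold was 1.94 over all LEC, 2.89 in Ackr4 LEC and 2.21 in floor LEC. With at most 5% mitochondrial UMIs it was 1.40 (1.02 to 1.96) in Ackr4 LEC and 5.37 (3.17 to 9.70) in floor LEC. Whether the UMIs came from LEC or from BEC in the same droplet was not tested.

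In floor LEC the SAH library had less Glycam1 and more of the other 3 scaffolds, Podxl, Cd34 and Emcn. Glycam1 was at 18421 and 14970 CPM, a ratio of 0.813 (0.805 to 0.821), which is inside the 1.5-fold line. Podxl was at 44.7 and 91.0 CPM (2.04-fold, 1.73 to 2.41), Cd34 at 45.7 and 76.3 CPM (1.67-fold, 1.41 to 1.98) and Emcn at 63.9 and 99.8 CPM (1.56-fold, 1.35 to 1.81). Predicted doublets made up 8.11% of sham and 14.4% of SAH floor LEC; without them the folds were 2.00, 1.64 and 1.43. Emcn was 1.29-fold (0.934 to 1.79) after thinning, and Cd34 1.49-fold (1.23 to 1.81) with the LEC split at 2 UMIs. The 6 BEC markers, which include Cd34 and Emcn, summed to 2192 CPM in sham and 2541 CPM in SAH there. The 4 capillary markers summed to 247 and 467 CPM and the 3 ceiling markers to 103 and 150 CPM, with Cd36 in both lists. Podxl was at 368 and 375 CPM in Ackr4 LEC, so it was not particular to BEC. The part of RNA from BEC or ceiling LEC in these differences was not tested. The floor markers Madcam1, Coch, Ccl20 and Itga2b summed to 6887 CPM in sham and 2998 CPM in SAH, and Ccl20 alone was at 5004 and 1130 CPM.

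Ackr4 LEC had little difference in Podxl, with 1.02-fold (0.972 to 1.07), and slightly more Cd34 (1.19-fold, 1.07 to 1.32) and Emcn (1.18-fold, 1.10 to 1.26). Glycam1 was at 1.72-fold (1.68 to 1.76) the sham level. This fold was 1.43 (1.38 to 1.48) without predicted doublets, 1.02 (0.989 to 1.06) without barcodes that carry Ptprc or mixed markers and 2.75 (2.66 to 2.83) with stricter gates. Without predicted doublets, which were 15.9% of sham and 15.6% of SAH cells of this class, Cd34 was 1.69-fold (1.42 to 2.02) the sham level. Cd34 then passed the 1.5-fold line, and Emcn, at a rounded 1.5-fold (1.36 to 1.65), lay just under it.

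In fibroblastic stroma 1 of 5 members with at least 10 CPM was higher in SAH, Glycam1, and 0 were lower, where 5.52% and 6.31% of 8272 genes were. The median log2 fold was 0.23 for the 5 members and -0.07 for all genes tested. Glycam1 was at 288 and 435 CPM, a fold of 1.51 (1.43 to 1.59), and the origin of these UMIs was not tested. Cd34 was at 90.6 and 70.6 CPM (0.779-fold, 0.703 to 0.864) over all fibroblastic cells. By subset it was 0.842-fold (0.695 to 1.02) in Pi16 cells and 1.04-fold (0.890 to 1.21) in Ccl19 cells, and 1.31-fold (1.04 to 1.65) in cells with neither marker, at 140 and 184 CPM in 367 and 190 cells.

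**Figure D5:**
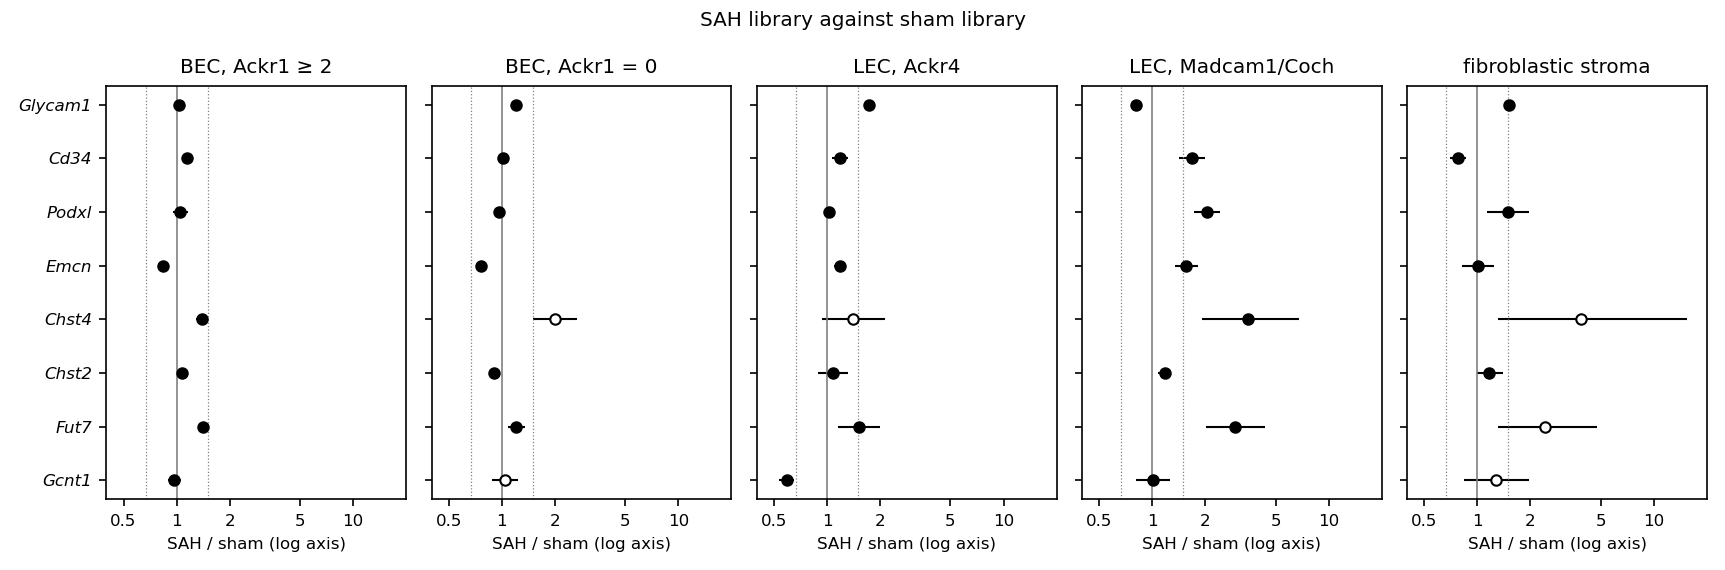
SAH level over sham level of each member (log axis) in 5 cell classes, with exact 95% intervals for counting error. Open circles have under 10 CPM in both libraries, the solid grey line marks 1 and dotted lines mark 1.5-fold in either direction. Gcnt1 in Ackr4 LEC lies at 0.592 and Podxl in Madcam1/Coch LEC at 2.04, while in Ackr1-high BEC all 8 points lie inside the dotted lines.

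Of 58 other genes listed for the same pathway, 57 were in the tables. Leaving out Ackr1 and Madcam1, which set classes of BEC or LEC, 38 had at least 10 CPM in the comparison of Ackr1-high with Ackr1-negative BEC. At least 1.5-fold higher in both libraries were 8 of them (Selp, St3gal6, Extl1, Chst1, Slc26a2, Gmds, Enpp2 and Ccl21a) and 7 were lower (Mcam, B4galt1, B4galt4, St3gal1, Chst7, Papss1 and Slc9a3r2), beside 3.65% and 15.3% of all genes compared. Chst1, a keratan sulfate sulfotransferase, had 105 CPM in sham and 98.4 CPM in SAH Ackr1-high BEC, 9.47-fold and 8.80-fold the Ackr1-negative level. St3gal6, an alpha-2,3 sialyltransferase of selectin ligands, had 398 and 308 CPM and folds of 1.55 and 1.58. Slc26a2, a sulfate importer, had 55.4 and 47.0 CPM and folds of 2.53 and 2.22. Slc9a3r2, an adaptor that binds the tail of podocalyxin, had 148 and 181 CPM and was at 0.252 and 0.255 of the Ackr1-negative level, near the 0.174 and 0.190 of Podxl.

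Genes listed as other scaffolds, and Enpp2, listed for the upkeep of high endothelial venules, differed from one another. Cd300lg (nepmucin), a further L-selectin ligand scaffold, had 575 CPM in sham and 733 CPM in SAH Ackr1-high BEC, 1.03-fold and 0.964-fold the Ackr1-negative level. Selp, the endothelial P-selectin and so itself a selectin, had 84.4 and 68.8 CPM and folds of 15.8 and 16.6. Cd164 had 76.8 and 71.3 CPM with folds of 1.08 and 1.03. Mcam had 114 and 49.7 CPM with folds of 0.611 and 0.516. Enpp2, which makes lysophosphatidic acid at high endothelial venules, had 2543 and 2764 CPM with folds of 2.28 and 1.99.

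Other enzymes of the pathway were on both sides of the 1.5-fold line. St3gal4, also a sialyltransferase, had 87.4 and 78.0 CPM with folds of 1.00 and 1.10 against Ackr1-negative BEC. B4galt4, a galactosyltransferase that acts on sulfated N-acetylglucosamine, had 52.8 and 53.3 CPM with folds of 0.436 and 0.433. Galnt1, which starts O-glycans, had 99.1 and 67.9 CPM with folds of 1.15 and 0.917. Papss2, which makes the sulfate donor, had 58.4 and 53.8 CPM with folds of 1.35 and 1.16. Of the lymphotoxin pathway, Relb had 100 and 90.3 CPM with folds of 1.54 and 1.40, and Nfkb2 74.6 and 95.5 CPM with folds of 1.73 and 1.42.

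Between the libraries, 41 of these genes could be compared in Ackr1-high BEC. Madcam1, Map3k14 and Ccl21a were at least 1.5-fold higher in SAH and Mcam, C1galt1c1 and Galnt4 at least 1.5-fold lower, so 3 of 41 were higher and 3 lower, beside 5.24% and 4.46% of all genes. The median log2 fold of the 41 was -0.11, beside -0.06 over all genes tested. Ccl21a, a chemokine for naive lymphocytes, had 9447 and 15760 CPM (1.67-fold, 1.65 to 1.68). Mcam had 0.435 (0.385 to 0.491) of the sham level, and C1galt1c1, the chaperone of the enzyme that makes core 1 O-glycans, 34.7 and 22.8 CPM and 0.656 (0.540 to 0.795). The 10 O-glycan core genes include 5 that could be compared, with a median log2 fold of -0.55. They did not all go down, since their folds ran from 0.618 (0.451 to 0.841) to 1.18 (0.990 to 1.40). In LEC 4 of 38 genes (Cd300lg, Ltbr, Map3k14 and Ccl21a) were higher and 2 (Selp and Mcam) lower, beside 5.44% and 2.66% of all genes. In Ackr1-negative BEC 3 of 38 (Parm1, Nfkb2 and Ccl21a) were higher and Mcam was lower, beside 5.64% and 2.42% of all genes. In fibroblastic stroma 3 of 32 (Cd300lg, Extl1 and Nfkb2) were higher and 3 (Mcam, Galnt4 and Papss1) lower, beside 5.52% and 6.31% of all genes.

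The genes most like a member were ranked by Pearson correlation of log2(CPM + 10) over the 20 class-by-library points among 5235 genes. For Glycam1 these were Psmb7 (0.965), Cpeb2 (0.953), Ehd3 (0.945), Hs3st6 (0.945) and Rfk (0.938). Chst4 was most like Vwf (0.980), the von Willebrand factor of venous endothelium, followed by Bpifb5 (0.975), Oit1 (0.972), Nefh (0.97) and Serpina1e (0.966). Emcn was most like Adgrg1 (0.981), Tspan13 (0.979), Esam (0.977), Cdipt (0.977) and Ccdc85a (0.976). Podxl was most like Ptprb (0.979), an endothelial phosphatase, then Rasgrp3 (0.974), Pdgfb (0.974) and Caskin2 (0.961). For Cd34 the genes were Lims2 (0.957), Gda (0.951), Pde8a (0.934), Ly6a (0.919) and Ace (0.919). No gene stood in more than 1 of these lists.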

How the data were processed

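For each library the authors deposited a matrix of raw UMI counts, with genes and cell barcodes as its sides. Per the submitters' processing notes they used Cell Ranger 5.0 with STAR and the build mm10, and named Seurat 3.0.2; the file header gives version 5.0.0 of Cell Ranger. Per the labels' protocols the cDNA was tagged at the 5′ end. The annotation release and intron counting are not given in the sources used here.

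Members and gene lists were chosen with earlier results of these data known. Entries that share a symbol were summed. Barcodes with at least 500 genes and at most 10% mitochondrial UMIs were gated as BEC (no Prox1, at least 1 Pecam1), LEC (at least 1 Prox1) or fibroblastic stroma (neither, at least 3 UMIs of Dcn and Col3a1). UMIs were summed per class and library and scaled to CPM. Intervals are exact Poisson, conditional binomial and Clopper-Pearson at 95%. A gene was compared where the pooled UMIs of both sums came to 10 CPM or more, in each library for comparisons of classes, and called at 1.5-fold, with 0.5 counts added to each sum when all genes were counted. A count of 0 allows 3. Cells were thinned to 2000 UMIs for shares. Scrublet, run through scanpy 1.11.5 with an expected rate of 0.1, predicted 729 sham (5.23%) and 876 SAH (6.36%) doublets, which were kept. Genes named are the members, the listed pathway genes with at least 50 CPM in Ackr1-high BEC or past 1.5-fold, and the 5 genes most like each of Glycam1, Chst4, Cd34, Emcn and Podxl, of which 1 is not reported here. The lists are other scaffolds, transferases, O-glycan core, sulfation and donors, podocalyxin anchors, upkeep of high endothelial venules, and cell type markers. Calculations were tested on simulated data. Python 3.11.15, numpy 2.4.6, scipy 1.17.1, pandas 2.3.3 and matplotlib 3.10.9 were used.

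Summed markers in Ackr1-high BEC, in sham and SAH, were 6053 and 6249 CPM for BEC, 85.9 and 84.7 for arterial, 1171 and 1294 for capillary, 108 and 82.0 for LEC, 577 and 471 for ceiling, 536 and 1046 for fibroblastic, 96.1 and 75.0 for mural, 30.3 and 29.6 for B cell, 11.4 and 7.76 for T or NK, 4.71 and 68.2 for myeloid and 2.18 and 1.58 CPM for Schwann cell markers.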

Additional observations from a re-analysis of the deposited data

Results flagged for a closer look

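Some members differed in opposite directions between the libraries in different cell classes, each beyond counting error as first computed, and the difference between classes itself was not tested. Glycam1 was 2.23-fold (2.18 to 2.28) the sham level in Ackr1-low BEC and 0.813-fold (0.805 to 0.821) in LEC with Madcam1 or Coch. Emcn was 0.667-fold (0.622 to 0.714) in Ackr1-low BEC and 1.83-fold (1.13 to 2.93) in fibroblastic cells with neither Pi16 nor Ccl19, the latter on 41 and 36 UMIs. Under 8 other settings its Ackr1-low value ran from 0.640 to 0.806, the latter after thinning, and 1 of them passed the 1.5-fold line. Gcnt1 was 1.55-fold (1.16 to 2.10) in Ackr1-low BEC, on 72 and 129 UMIs, but 1.18-fold (0.678 to 2.08) there after thinning and 1.49-fold (0.983 to 2.29) with at most 5% mitochondrial UMIs, and it was 0.592-fold (0.537 to 0.653) in Ackr4 LEC.

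Members were also seen in kept barcodes that no gate took, 520 in sham and 393 in SAH. There Glycam1 was 1.83-fold (1.71 to 1.96), Cd34 1.51-fold (1.22 to 1.88) and Fut7 4.30-fold (1.65 to 13.1) higher in SAH, with Fut7 on 6 and 19 UMIs. The 10 highest barcodes held 53.9% of the Glycam1 UMIs of this set in sham and 56.4% in SAH.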

How the results depend on the processing

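Of 429 SAH-to-sham folds of members recomputed under other settings, 0 turned from one side of 1.5-fold to the opposite side, and 83 moved by more than their counting interval. In Ackr1-high and Ackr1-negative BEC the count of members past 1.5-fold, among those with at least 10 CPM, stayed 0 under all settings run. In LEC it was 1 in place of 2 with equal weight for the 4 LEC classes, a setting chosen after seeing the data. In fibroblastic stroma it was 0 in place of 1 with at most 5% mitochondrial UMIs or stricter gates, and 2, with Podxl added, with at least 1000 genes, without doublets, with median ratio scaling, with the class total without mitochondrial, ribosomal and Glycam1 UMIs, and after thinning. The Glycam1 fold in Ackr1-high BEC was 0.875 with at most 5% mitochondrial UMIs, 0.988 with Ackr1 read after thinning, 1.02 after thinning, 1.04 without doublets or with that reduced total, 1.05 without mixed barcodes, 1.06 with median ratio scaling and 1.07 with equal Ackr1 bins. That of Chst4 was 1.17 with at most 5% mitochondrial UMIs. Floor-to-ceiling folds reversed for Cd34 in sham without doublets (1.05) and for Chst4 in SAH after thinning (0.778), and that of Fut7 in sham turned from 0.801 to 1.78 without doublets; the cause was not tested. Scaling moved the median of all genes by less than 0.1 on the log2 scale.

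No replicate could be left out, since each group is 1 library. No paired analysis was possible because each group has 1 library. Depth limits Chst4 and Fut7 outside Ackr1-high BEC most, with 4 and 21 Chst4 UMIs and 14 and 46 Fut7 UMIs in fibroblastic stroma. Differences between 2 pools of mice, library preparation and condition cannot be told apart.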

Other observations

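The 2795 sham and 2312 SAH barcodes removed by the filters on genes and mitochondrial UMIs also held the members. Emcn was at 451 and 281 CPM there, 0.624-fold (0.584 to 0.666) in SAH, the same direction as in the 3 BEC classes. Podxl was 0.718-fold (0.666 to 0.773) and Cd34 0.854-fold (0.796 to 0.915) the sham level. Glycam1 was at 3647 and 3501 CPM, 0.960-fold (0.941 to 0.979), and Chst4 and Fut7, at 1.13-fold (0.839 to 1.52) and 1.09-fold (0.923 to 1.29), did not differ beyond counting error.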
